A study of Mus musculus with 9 samples.

Results

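The livers of mice made hypothyroid with methimazole (MMI) were compared with the livers of untreated control mice (CT). Libraries were placed in these groups by their sample labels, and the comparison used 3 MMI and 3 CT libraries of the 9 RNA-seq libraries in the series. It was made over the 17154 genes that appeared in the count tables of both groups, out of 18081 genes listed in either. MMI mice had drunk water with 0.1% methimazole for 20 days, while CT mice had no treatment. According to the study's methods, the water also held sodium perchlorate. The CT labels give C57BL/6J mice of about 8 to 12 weeks, whereas the MMI labels give no age and name the strain C57BL/6. All mice were male. The remaining 3 libraries came from hypothyroid mice injected with triiodothyronine (T3) and were not used in this comparison. Because every MMI library was in one count table and every CT library in another, the drug, the hypothyroid state and the table cannot be told apart. The sources used here do not say that each library came from a different mouse, so the p-values rest on the spread among these libraries, and that spread may be technical.

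Methimazole blocks the thyroid peroxidase that makes thyroid hormone, and perchlorate blocks the uptake of iodide by the thyroid. Thyroid hormone acts in the liver through nuclear receptors, mainly the beta form encoded by Thrb, and is known for its control of cholesterol, bile acid and fatty acid metabolism. The liver of rodents also differs strongly between the sexes, and much of that difference follows the pattern of growth hormone secretion, which in turn needs thyroid hormone. Methimazole itself is oxidised by liver enzymes. Genes of drug and oxidant defence were among the gene lists described here, which were all chosen with earlier results of these data known.

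Library totals were 17256776 to 22599227 counts in MMI livers and 19662770 to 22148995 counts in CT livers. Values are given as normalised read counts, that is counts relative to the scaled library size (CPM, as edgeR computes it), and 3 values in a row are those of replicates 1, 2 and 3. The first principal component of all genes tested placed the MMI libraries at -34.90 to -16.06 and the CT libraries at 21.83 to 31.23. Mitochondrially encoded genes took 4.991% of the counts of MMI replicate 3, against 3.291% to 3.748% in the other 5 libraries. Albumin (Alb), the main plasma protein of hepatocytes, was 21242, 21060 and 18318 CPM in MMI livers and 23990, 25139 and 23191 CPM in CT livers (log2 fold change -0.25, edgeR adjusted p = 0.356).

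Of the 13925 genes with enough counts to test, 346 (2.48%) were higher and 390 (2.80%) were lower in MMI livers by the quasi-likelihood test of edgeR (Benjamini-Hochberg adjusted p under 0.05), so that 5.29% of all genes passed. The log2 fold change of MMI over CT had a median of 0.01 over all genes tested. All MMI libraries were above all CT libraries for 1767 of the genes tested and below them for 1865. Most of these genes did not pass, so groups that do not overlap are by themselves common here. Among genes past the test, the estimate exceeded 8-fold for 48 higher and 45 lower genes and 2-fold for 201 higher and 170 lower genes, while 145 higher and 220 lower genes changed by less than 2-fold. The counts rested most on the CT livers, since only 155 higher and 186 lower genes passed without CT replicate 2, and 183 and 199 without CT replicate 3.

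Among the thyroid hormone genes, Dio1 and Thrsp were lower and Serpina7 was higher in MMI livers, while both receptor genes were near the CT level. Of 30 tested genes of thyroid hormone handling and response, 8 (26.7%) were lower and 1 (3.33%) was higher in MMI livers, with a list median of -0.25, beside 2.80% lower and 2.48% higher among all genes tested. Dio1, the gene of the type 1 deiodinase that activates thyroxine, was 4.65, 3.13 and 3.92 CPM in MMI livers, against 43.8, 79.6 and 58.5 CPM in CT livers (chromosome 4, 107291465 to 107307169, minus strand, GRCm38). The groups did not overlap, and the highest MMI library held 4.65 CPM where the lowest CT library held 43.8 CPM. The difference on the log2 scale was -3.96, with an SE of 0.24 and an edgeR adjusted p of 5.43e-06. Thrsp, a regulator of fatty acid synthesis, was 74.7, 110 and 78.5 CPM in MMI livers, against 212, 348 and 300 CPM in CT livers (log2 fold change -1.71, SE 0.20, edgeR adjusted p = 0.000766). All CT libraries were above all MMI libraries.

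Serpina7, which encodes thyroxine-binding globulin, was the gene of this list that rose. It was 125, 152 and 131 CPM in MMI livers, against 23.1, 24.8 and 19.2 CPM in CT livers (log2 fold change 2.60, SE 0.14, edgeR adjusted p = 3.58e-06; chromosome X, 139079257 to 139085236). The libraries of each group lay close together, and the groups did not overlap. Upp2, the liver uridine phosphorylase, fell by 1.39 on the log2 scale (edgeR adjusted p = 0.00922), and Pdp2, which activates pyruvate dehydrogenase, fell by 0.71 (edgeR adjusted p = 0.00691). Idh3a, a subunit of the mitochondrial isocitrate dehydrogenase, was 29.5, 28.4 and 27.3 CPM in MMI livers and 44.5, 44 and 47.4 CPM in CT livers (log2 fold change -0.67, edgeR adjusted p = 0.00588). Me1, the cytosolic malic enzyme and a classical thyroid hormone target, did not pass the test, with 166, 174 and 145 CPM in MMI livers and 185, 219 and 197 CPM in CT livers (log2 fold change -0.31, edgeR adjusted p = 0.21). The receptor genes gave log2 fold changes of -0.09 for Thrb (SE 0.14, edgeR adjusted p = 0.786) and 0.13 for Thra (SE 0.14, edgeR adjusted p = 0.663). Gpd2, the mitochondrial glycerol phosphate dehydrogenase, fell by 0.85 on the log2 scale. It was not past the threshold in every set of libraries, with an adjusted p of 0.162 without CT replicate 2, 0.0893 without CT replicate 3 and 0.0674 without MMI replicate 1.

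**Figure D1:**
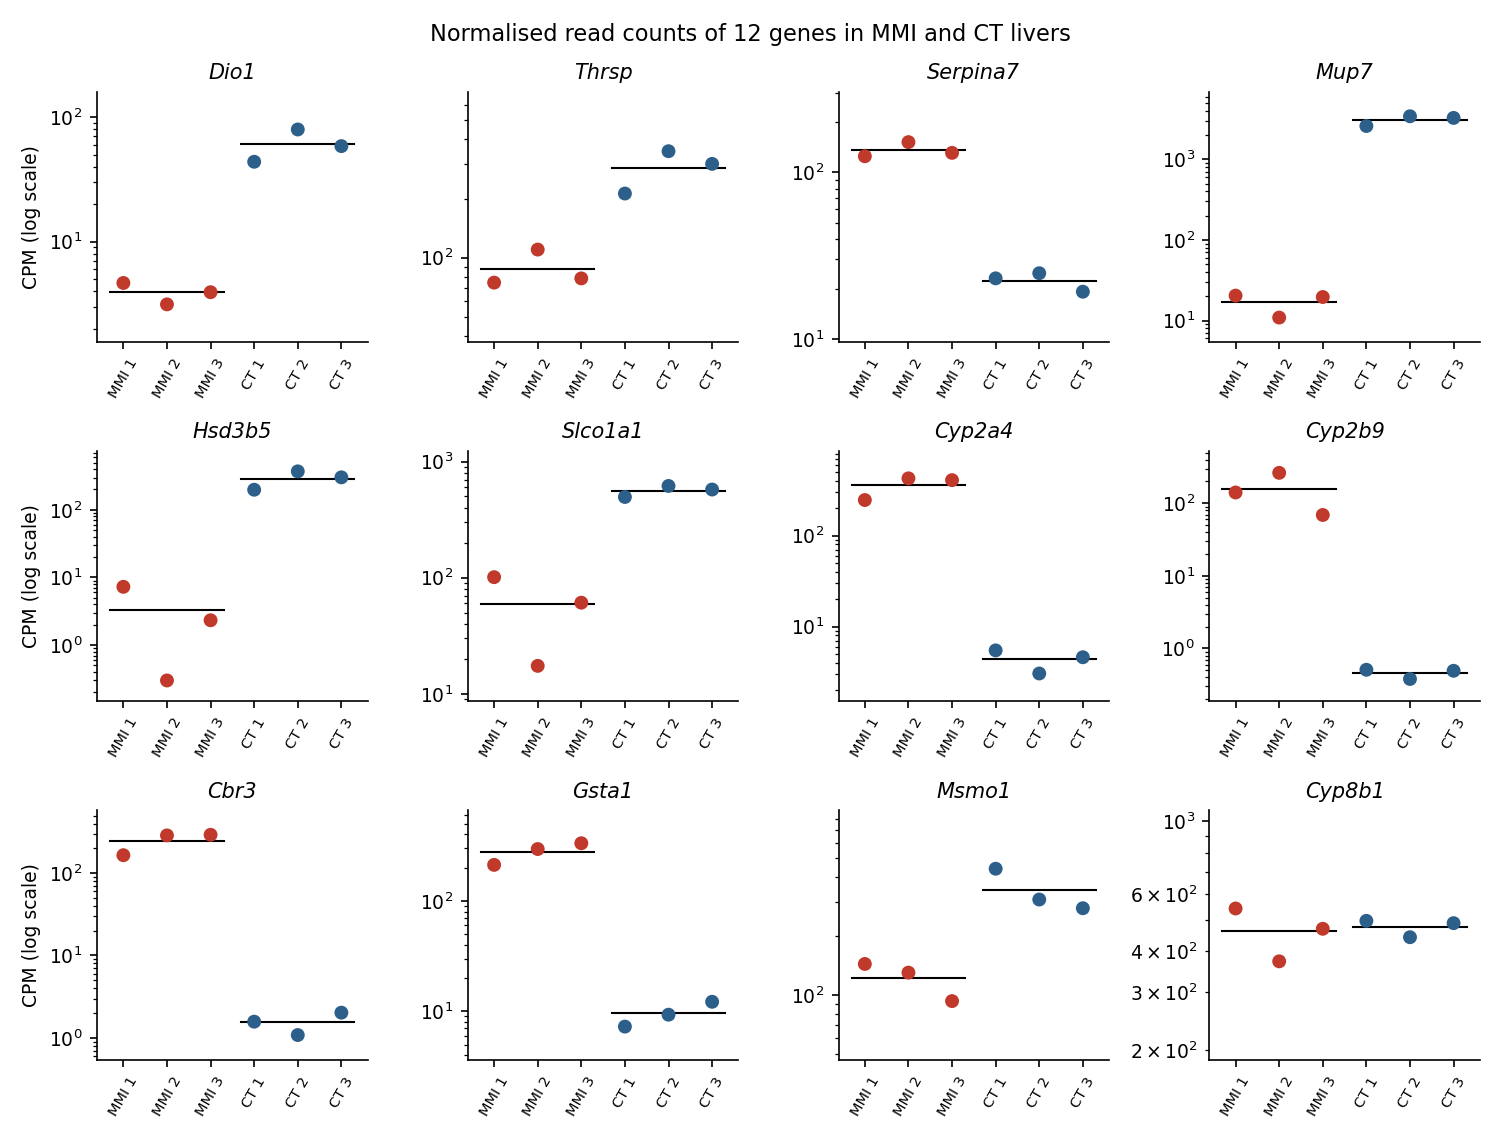
CPM on a log axis for 12 genes in each library, with MMI livers in red to the left of CT livers in blue and a line at each group's mean. Cyp8b1 is the panel in which the groups overlap, at 373 to 541 CPM in MMI livers and 442 to 496 CPM in CT livers, and Hsd3b5 and Slco1a1 show a wide spread among the MMI libraries, at 0.3 to 7.27 CPM and 17.4 to 101 CPM.

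Most Mup genes and 22 of 37 male-biased genes were lower in MMI livers, and 16 of 31 genes known to be higher in female livers were higher. Major urinary protein (Mup) genes encode pheromone-binding proteins that male livers secrete in large amounts. Of 34 tested Mup genes and pseudogenes, 32 (94.1%) were lower and none was higher in MMI livers, beside 2.80% lower among all genes tested. The list median was -4.99. Their summed level was 4315, 2674 and 3625 CPM in MMI livers, against 13081, 16439 and 16872 CPM in CT livers. The MMI libraries thus kept a Mup level below that of every CT library, while members differed by far in size. Mup7 was 20.4, 10.9 and 19.6 CPM in MMI livers, against 2589, 3419 and 3262 CPM in CT livers (log2 fold change -7.51, SE 0.29, edgeR adjusted p = 4.64e-07; chromosome 4, 60066469 to 60070475). Mup17 was 35, 14.3 and 32.8 CPM in MMI livers, against 1114, 1764 and 2114 CPM in CT livers (log2 fold change -5.93). Mup1, Mup12, Mup15 and Mup11 had log2 fold changes of -6.57, -6.38, -6.70 and -6.26. Mup copies are nearly identical in sequence and the treatment of reads with several matches was not given in the sources used here, so the division of reads among single Mup genes is uncertain.

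Of 37 tested male-biased genes, 22 (59.5%) were lower in MMI livers and none was higher, beside 2.80% lower among all genes tested, with a median of -1.01. This list shared 5 members with the Mup genes, 4 of which passed. Hsd3b5, a steroid dehydrogenase of male mouse liver, was 7.27, 0.3 and 2.33 CPM in MMI livers, against 198, 370 and 302 CPM in CT livers (log2 fold change -6.46, SE 0.68, edgeR adjusted p = 0.000304; chromosome 3, 98618634 to 98630252). The groups did not overlap, and the MMI libraries differed widely among themselves. Slco1a1, an organic anion uptake transporter, was 101, 17.4 and 60.9 CPM in MMI livers, against 495, 616 and 574 CPM in CT livers (log2 fold change -3.23, SE 0.47, edgeR adjusted p = 0.00266). Serpina1e, a copy of the alpha-1-antitrypsin gene, was 1113, 194 and 555 CPM in MMI livers, against 5686, 5919 and 6112 CPM in CT livers (log2 fold change -3.25, SE 0.48, edgeR adjusted p = 0.00277). In these 3 genes MMI replicate 2 was the lowest library and MMI replicate 1 the highest of the MMI livers. Elovl3, a fatty acid elongase, fell by 2.49 on the log2 scale and Selenbp2, a selenium-binding protein, by 4.03. Serpina12, the vaspin gene, and Susd4, a complement regulator, fell by 3.17 and 1.80.

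Not all male-biased genes passed the test. The log2 fold change was negative for 34 of the 37 and positive for 3. Cyp4a12a, a fatty acid hydroxylase of male liver that makes 20-HETE in mice, was 318, 247 and 373 CPM in MMI livers and 304, 386 and 514 CPM in CT livers (log2 fold change -0.36, edgeR adjusted p = 0.375), and the groups overlapped. The number of male-biased genes that were lower was 18 to 26 when each library was left out in turn.

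Of 31 tested female-biased genes, 16 (51.6%) were higher in MMI livers and none was lower, beside 2.48% higher among all genes tested. The median was 1.12, and 7 members had a negative log2 fold change. Cyp2b9, a female-predominant P450, was 141, 263 and 69.1 CPM in MMI livers, against 0.509, 0.38 and 0.493 CPM in CT livers (log2 fold change 8.39, SE 0.56, edgeR adjusted p = 9.72e-06; chromosome 7, 26173411 to 26210661). CT livers were close to 0, and the level varied widely among MMI livers. Cyp2a4, a steroid 15-alpha-hydroxylase, was 247, 428 and 409 CPM in MMI livers, against 5.46, 3.04 and 4.59 CPM in CT livers (log2 fold change 6.36, SE 0.29, edgeR adjusted p = 8.30e-07). It differs from Cyp2a5 at few positions, so part of its count may belong to the other gene. Hamp2, a hepcidin paralog, was 285, 251 and 264 CPM in MMI livers, against 41.7, 62.5 and 41.9 CPM in CT livers (log2 fold change 2.45, SE 0.17, edgeR adjusted p = 1.35e-05). Lpl, lipoprotein lipase, which is low in the adult liver, was 248, 192 and 221 CPM in MMI livers, against 44.9, 63.2 and 41.9 CPM in CT livers (log2 fold change 2.14, SE 0.18, edgeR adjusted p = 4.42e-05). The groups were apart for each of these genes, and the MMI libraries varied least for Hamp2 and Lpl. Cd36, a fatty acid uptake receptor, and Vldlr, the very low density lipoprotein receptor, rose with log2 fold changes of 1.55 and 2.66. The number of female-biased genes past the test was 10 without CT replicate 3 and 17 without MMI replicate 3.

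The growth hormone axis sets the sex pattern of mouse liver. Of 37 tested genes, 3 (8.11%) were lower and 1 (2.70%) was higher, beside 2.80% lower and 2.48% higher among all genes tested, with a median of -0.21. An unadjusted p under 0.05 was found for 18 of the 37, and DESeq2 called 8 lower and 2 higher. Among all 13925 genes tested, 2673 had an unadjusted p under 0.05, and DESeq2 called 630 lower and 524 higher. Stat5b, the transcription factor that growth hormone activates in hepatocytes, was 58.1, 59.3 and 63.4 CPM in MMI livers, against 101, 93.7 and 98.7 CPM in CT livers (log2 fold change -0.70, SE 0.11, edgeR adjusted p = 0.00451). The libraries of each group lay within a narrow range of each other. Its relative Stat5a was just outside the threshold (log2 fold change -0.77, edgeR adjusted p = 0.0507). It passed without MMI replicate 3 (0.00222), the MMI library nearest to CT livers. It also passed by the DESeq2 Wald test (0.00738), by limma-voom (0.0338) and with a replicate block (0.011). Igfbp2, an insulin-like growth factor binding protein, fell by 0.97 on the log2 scale (edgeR adjusted p = 0.0067). Foxa3, a liver transcription factor, fell by 0.58 with an edgeR adjusted p of 0.0376, which was 0.181 without CT replicate 2.

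The receptor and the main product of the axis passed only in some fits. Ghr, the growth hormone receptor, was 619, 457 and 378 CPM in MMI livers and 699, 748 and 787 CPM in CT livers (log2 fold change -0.62, edgeR adjusted p = 0.0688). Igf1, insulin-like growth factor 1, was 465, 303 and 355 CPM in MMI livers and 483, 526 and 615 CPM in CT livers (log2 fold change -0.53, edgeR adjusted p = 0.109). Every MMI library was below every CT library for both, as it was for 1865 of the 13925 genes tested. Without MMI replicate 1, the MMI library nearest to CT livers, the edgeR adjusted p was 0.013 for Ghr and 0.0333 for Igf1. Without any other single library it was 0.0776 to 0.215 for Ghr and 0.135 to 0.337 for Igf1. By the DESeq2 Wald test it was 0.00796 and 0.0289. Socs2, a feedback inhibitor that STAT5 induces, was 53.1, 7.42 and 14.2 CPM in MMI livers and 4.86, 11.7 and 3.01 CPM in CT livers, and the groups overlapped (edgeR adjusted p = 0.129, or 0.0315 without MMI replicate 2). Bcl6, the repressor of female genes in male liver, was 50.7, 51.5 and 84.7 CPM in MMI livers and 74.2, 82.7 and 127 CPM in CT livers (log2 fold change -0.60, edgeR adjusted p = 0.193). The adjusted p of Bcl6 was 0.0342 without MMI replicate 3 and 0.151 to 0.527 without any other single library. By edgeR with a replicate block it was 0.0103, and by the DESeq2 Wald test 0.0888. Cux2, the repressor of male genes in female liver, was at 0.406, 0.686 and 0.794 CPM in MMI livers and 0.324, 0.0542 and 0.148 CPM in CT livers, too low to test. The number of lower genes in this list was 6 without MMI replicate 1 or MMI replicate 3 and 2 without MMI replicate 2 or any single CT library, and the number of higher genes was 3 without MMI replicate 2 and 2 without MMI replicate 3 or CT replicate 1.

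Of 34 tested genes of cholesterol synthesis and SREBP2 control, 18 (52.9%) were lower in MMI livers and none was higher, beside 2.80% lower among all genes tested, with a median of -0.74. Hmgcs1, the synthase at the entry of the pathway, was 420, 399 and 281 CPM in MMI livers, against 1171, 857 and 768 CPM in CT livers (log2 fold change -1.35, SE 0.20, edgeR adjusted p = 0.00266). Msmo1, a sterol methyl oxidase late in the pathway, was 144, 130 and 92.9 CPM in MMI livers, against 443, 308 and 278 CPM in CT livers (log2 fold change -1.49, SE 0.21, edgeR adjusted p = 0.00193; chromosome 8, 64718139 to 64733792). The groups did not overlap, with CT replicate 1 the highest and MMI replicate 3 the lowest library for both genes. The late enzymes Dhcr7, Sc5d and Nsdhl fell by 1.27, 1.24 and 1.21 on the log2 scale. Scap, which escorts SREBP proteins to the Golgi, was 111, 117 and 111 CPM in MMI livers, against 206, 217 and 195 CPM in CT livers (log2 fold change -0.87, SE 0.11, edgeR adjusted p = 0.0013).

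Srebf2, the transcription factor of the pathway, was 66.2, 87.3 and 64.3 CPM in MMI livers and 121, 92.8 and 93.9 CPM in CT livers (log2 fold change -0.50, edgeR adjusted p = 0.107). The groups did not overlap, as for 1865 genes tested that lay lower in all MMI libraries. The edgeR adjusted p was 0.0359 without MMI replicate 2, the MMI library nearest to CT livers. The number of lower genes in the list fell to 9 without CT replicate 1. It was 25 by DESeq2, which called 630 of all 13925 genes tested lower.

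A short window around the start of each gene was searched for the SREBP core TCACNCCAC on both strands. It was present in 1.44% of 27025 genes with a RefSeq promoter of GRCm38.p6 (250 bases before to 50 after the start). A gene counted if any of its windows matched. The core was present in 1 of the 25 list members with a promoter (4.0%, exact 95% interval 0.101% to 20.4%). That member was Hmgcs1, chosen for display after its values were seen because it carries the single match in the list. The match starts 137 bases before the gene's start and is set in capitals in the window chr13:119690101-119690400, plus strand.
Hmgcs1: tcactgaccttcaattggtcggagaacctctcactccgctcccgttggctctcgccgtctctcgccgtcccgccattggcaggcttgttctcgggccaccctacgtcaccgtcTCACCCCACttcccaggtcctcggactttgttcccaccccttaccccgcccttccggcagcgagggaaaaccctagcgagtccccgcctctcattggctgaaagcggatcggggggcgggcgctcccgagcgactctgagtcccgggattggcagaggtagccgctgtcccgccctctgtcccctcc

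Genes of bile acid synthesis fell in MMI livers where they passed the test. Of 21 tested genes, 6 (28.6%) were lower and none was higher, beside 2.80% lower among all genes tested. The list median was -0.29. Cyp7a1, whose enzyme opens the classical pathway and limits its rate, was 40.2, 25.6 and 45.8 CPM in MMI livers, against 117, 109 and 84.3 CPM in CT livers (log2 fold change -1.48, SE 0.21, edgeR adjusted p = 0.00204). Cyp7b1, an oxysterol hydroxylase of the alternative pathway and also a male-biased gene, was 91.5, 50.6 and 62 CPM in MMI livers, against 189, 272 and 279 CPM in CT livers (log2 fold change -1.86, SE 0.22, edgeR adjusted p = 0.000791). The groups were apart for both genes. Cyp8b1, whose enzyme directs synthesis towards cholic acid, was 541, 373 and 469 CPM in MMI livers and 496, 442 and 488 CPM in CT livers, and its groups overlapped (log2 fold change -0.04, SE 0.15, edgeR adjusted p = 0.904).

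The mitochondrial sterol hydroxylase gene Cyp27a1 fell by 0.61 on the log2 scale, the racemase gene Amacr by 0.73 and the mouse muricholic acid enzyme gene Cyp2c70 by 0.77. These calls needed the CT livers, since the adjusted p without CT replicate 2 was 0.0908 for Cyp27a1, 0.079 for Amacr and 0.156 for Cyp2c70, and the list then held 2 lower genes, as it did without CT replicate 3. Nr1h4, the bile acid receptor FXR, was 136, 107 and 124 CPM in MMI livers and 123, 148 and 140 CPM in CT livers (log2 fold change -0.17, edgeR adjusted p = 0.546).

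Of 28 tested genes of bile acid and organic anion transport, 4 (14.3%) were lower and 2 (7.14%) were higher. Among all genes tested, 2.80% were lower and 2.48% were higher. Both higher genes, Abcc4 and Abcc3, were also on the list of NRF2 targets and glutathione enzymes. Slco1a1, among the lower genes, was also on the male-biased list. Slc22a7, an organic anion transporter of the sinusoidal membrane, was 4.65, 0.857 and 3.39 CPM in MMI livers, against 17.2, 30.1 and 24.7 CPM in CT livers (log2 fold change -3.02, edgeR adjusted p = 0.00223). Slc10a2, the apical sodium bile acid transporter, which in the liver belongs to the bile ducts, was 18.8, 10.5 and 12.4 CPM in MMI livers, against 41.2, 42.2 and 37.6 CPM in CT livers (log2 fold change -1.54, edgeR adjusted p = 0.00106). No MMI library reached the lowest CT library for either gene. Abcc4, an efflux pump of the sinusoidal membrane, was 176, 391 and 278 CPM in MMI livers, against 5.05, 3.36 and 4.44 CPM in CT livers (log2 fold change 6.03, SE 0.31, edgeR adjusted p = 1.99e-06; chromosome 14, 118482692 to 118706219). Even the lowest MMI library was far above every CT library. Abcc3, another export pump of that membrane, rose with a log2 fold change of 0.66, and its edgeR adjusted p of 0.0165 became 0.057, 0.105 and 0.114 without CT replicate 1, 2 or 3. Slc10a1, the main sodium bile acid uptake transporter, and Abcb11, the bile salt export pump, did not pass, with log2 fold changes of -0.43 and -0.47 and edgeR adjusted p-values of 0.281 and 0.0701. For Abcb11 it was 0.0472 without MMI replicate 3 and 0.0578 to 0.277 without any other single library. The adjusted p of Abcb11 was 0.0415 with all 9 libraries in the edgeR fit and 0.00778 by the DESeq2 Wald test.

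Of 40 tested genes of lipogenesis and lipid storage, 5 (12.5%) were lower and 1 (2.50%) was higher, beside 2.80% and 2.48% of all genes tested, with a median of -0.22. An unadjusted p under 0.05 was found for 16 of the 40, beside 2673 of all 13925 genes tested. Beside Thrsp, Acss2, which makes acetyl-CoA from acetate, was 203, 219 and 153 CPM in MMI livers, against 473, 409 and 336 CPM in CT livers (log2 fold change -1.08, SE 0.17, edgeR adjusted p = 0.00414). Elovl2, an elongase of polyunsaturated fatty acids, was 267, 188 and 186 CPM in MMI livers, against 450, 439 and 461 CPM in CT livers (log2 fold change -1.08, SE 0.16, edgeR adjusted p = 0.0025). In both cases the groups did not overlap. Pgd, which supplies NADPH in the pentose phosphate pathway, rose (log2 fold change 1.10, edgeR adjusted p = 0.00401). The synthase Fasn was 374, 801 and 378 CPM in MMI livers and 669, 802 and 607 CPM in CT livers, the desaturase Scd1 was 3573, 4635 and 2846 CPM in MMI livers and 4732, 6830 and 3976 CPM in CT livers, and neither passed (edgeR adjusted p = 0.432 and 0.265). MMI replicate 2 lay within the CT range for both. The edgeR adjusted p of Fasn was 0.00974 without MMI replicate 2 and 0.471 to 0.756 without any other single library. Lower genes numbered 8 without MMI replicate 2 and 3 without CT replicate 2, and higher genes numbered 2 without MMI replicate 1 or CT replicate 3.

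Of 49 tested genes of fatty acid oxidation and ketogenesis, 7 (14.3%) were higher and 2 (4.08%) were lower, with a median of -0.06. Among all genes tested, 2.48% were higher and 2.80% were lower. Cyp4a14, a microsomal fatty acid hydroxylase, was 1078, 1432 and 843 CPM in MMI livers, against 115, 227 and 186 CPM in CT livers (log2 fold change 2.67, SE 0.26, edgeR adjusted p = 0.000184). Acot4 and Acot3, peroxisomal acyl-CoA thioesterases, rose with log2 fold changes of 1.13 and 2.91. Fgf21, a hormone secreted by hepatocytes, was detected in MMI livers at 0.813, 1.24 and 2.54 CPM, against 0.0463, 0 and 0.148 CPM in CT livers (edgeR adjusted p = 0.0083). The MMI libraries were above the CT libraries in each case, but at low levels for Fgf21. Ppara, the receptor that drives many of these genes, and Cpt1a, the gate of mitochondrial fatty acid uptake, did not pass (log2 fold changes -0.08 and -0.31, edgeR adjusted p = 0.821 and 0.192). Genes that were higher numbered 11 without MMI replicate 3 and 4 without CT replicate 3, and none was lower without MMI replicate 2 or CT replicate 3.

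Genes of oxidant and electrophile defence were the list with the most members higher in MMI livers. NRF2 is a transcription factor that KEAP1 holds back until electrophiles or oxidants release it, and its targets make glutathione and reduce or export reactive compounds. Of 57 tested NRF2 targets and glutathione enzymes, 28 were higher and none was lower, with a median of 0.63, beside 2.48% higher among all genes tested, and the summed level was 28839, 32843 and 30423 CPM in MMI livers, against 18638, 19614 and 18849 CPM in CT livers. Cbr3, a carbonyl reductase, was 165, 287 and 292 CPM in MMI livers, against 1.57, 1.08 and 2.02 CPM in CT livers (log2 fold change 7.30, SE 0.30, edgeR adjusted p = 4.64e-07; chromosome 16, 93683215 to 93690990). Its close relative Cbr1 was 384, 563 and 507 CPM in MMI livers, against 94.7, 82.9 and 91.5 CPM in CT livers (log2 fold change 2.43, SE 0.16, edgeR adjusted p = 9.72e-06). Nqo1, a quinone reductase and a standard NRF2 target, was 54.2, 98.2 and 58.5 CPM in MMI livers, against 8.61, 6.78 and 8.29 CPM in CT livers (log2 fold change 3.15, SE 0.23, edgeR adjusted p = 1.74e-05). Every MMI library was above every CT library for these genes, and MMI replicate 1 was the lowest MMI library each time.

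Among glutathione S-transferases of this list, some rose and others did not pass, such as Gsta3 (log2 fold change 0.06, edgeR adjusted p = 0.874) and Mgst1 (log2 fold change -0.06, edgeR adjusted p = 0.863). Gsta1 was 212, 295 and 333 CPM in MMI livers, against 7.27, 9.32 and 12.2 CPM in CT livers (log2 fold change 4.87, SE 0.24, edgeR adjusted p = 1.24e-06). Gstm3 was 1011, 1681 and 1239 CPM in MMI livers, against 168, 117 and 110 CPM in CT livers (log2 fold change 3.31). Gstm1, the most abundant of those named, was 5092, 5945 and 5848 CPM in MMI livers, against 1821, 1811 and 1744 CPM in CT livers (log2 fold change 1.65, edgeR adjusted p = 3.65e-05). Copies of the Gsta and Gstm families are alike in sequence, so reads may be shared among them. Gpx2, a glutathione peroxidase mostly of the gut, had 4.06, 7.16 and 11.6 CPM in MMI livers, against 0.0463, 0 and 0.148 CPM in CT livers (edgeR adjusted p = 0.000158).

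Glutathione synthesis was uneven. Gclc, the catalytic subunit of the rate-limiting ligase, was 1408, 1889 and 1436 CPM in MMI livers, against 702, 642 and 582 CPM in CT livers (log2 fold change 1.30, SE 0.15, edgeR adjusted p = 0.000701). Its modifier subunit Gclm was 372, 432 and 284 CPM in MMI livers and 332, 300 and 309 CPM in CT livers, with overlapping groups (log2 fold change 0.21, SE 0.16, edgeR adjusted p = 0.516). Hmox1, heme oxygenase 1, did not pass (log2 fold change 0.70, SE 0.19, edgeR adjusted p = 0.0627). The adjusted p of Hmox1 was 0.0263 without MMI replicate 1 and 0.097 to 0.25 without any other single library. By the DESeq2 Wald test it was 0.0198, and by edgeR with a replicate block 0.0426. The mRNA of NRF2 itself, Nfe2l2, was 106, 102 and 116 CPM in MMI livers and 106, 112 and 108 CPM in CT livers, and Keap1 was 79.7, 95 and 81.2 CPM in MMI livers and 87.3, 79.4 and 74.1 CPM in CT livers (edgeR adjusted p = 0.98 and 0.756). Srxn1, which restores oxidised peroxiredoxins, Txnrd1, the cytosolic thioredoxin reductase, and Ugdh, which supplies UDP-glucuronate, rose with log2 fold changes of 2.42, 1.22 and 1.24. The number of higher genes in the list was 21 to 32 when each library was left out.

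The core of the antioxidant response element, TGACNNNGC, was searched on both strands in the same promoter windows. Only this form was searched, so variants of the core are not marked. It was present in 14.0% of all genes with a promoter and in 15 of the 51 list members with a promoter (29.4%, exact 95% interval 17.5% to 43.8%). Within the list, the share was 29.2% of the 24 members that passed the test and 29.6% of the 27 that did not. Srxn1 and Ugdh, chosen after their values were seen, show a window with a single match and a window with a pair, set in capitals and read on the gene's strand. In Srxn1 (chr2:152105274-152105573, plus strand) the match lies 28 bases into the transcript and reads as the motif on the opposite strand. In Ugdh (chr5:65435793-65436092, minus strand) matches start 132 and 94 bases before the start, the one nearer to it on the opposite strand.
Srxn1: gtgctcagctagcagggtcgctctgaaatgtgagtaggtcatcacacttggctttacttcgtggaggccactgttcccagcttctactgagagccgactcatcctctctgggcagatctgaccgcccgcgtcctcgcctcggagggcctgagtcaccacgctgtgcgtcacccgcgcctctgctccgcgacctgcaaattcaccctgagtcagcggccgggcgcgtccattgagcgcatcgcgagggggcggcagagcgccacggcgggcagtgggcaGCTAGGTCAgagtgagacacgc
Ugdh: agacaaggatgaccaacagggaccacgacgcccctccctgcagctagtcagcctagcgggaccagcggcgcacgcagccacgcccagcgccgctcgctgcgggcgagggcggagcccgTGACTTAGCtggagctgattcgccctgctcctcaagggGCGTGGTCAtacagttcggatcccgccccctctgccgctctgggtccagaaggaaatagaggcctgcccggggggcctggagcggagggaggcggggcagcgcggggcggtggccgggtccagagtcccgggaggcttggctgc

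**Figure D2:**
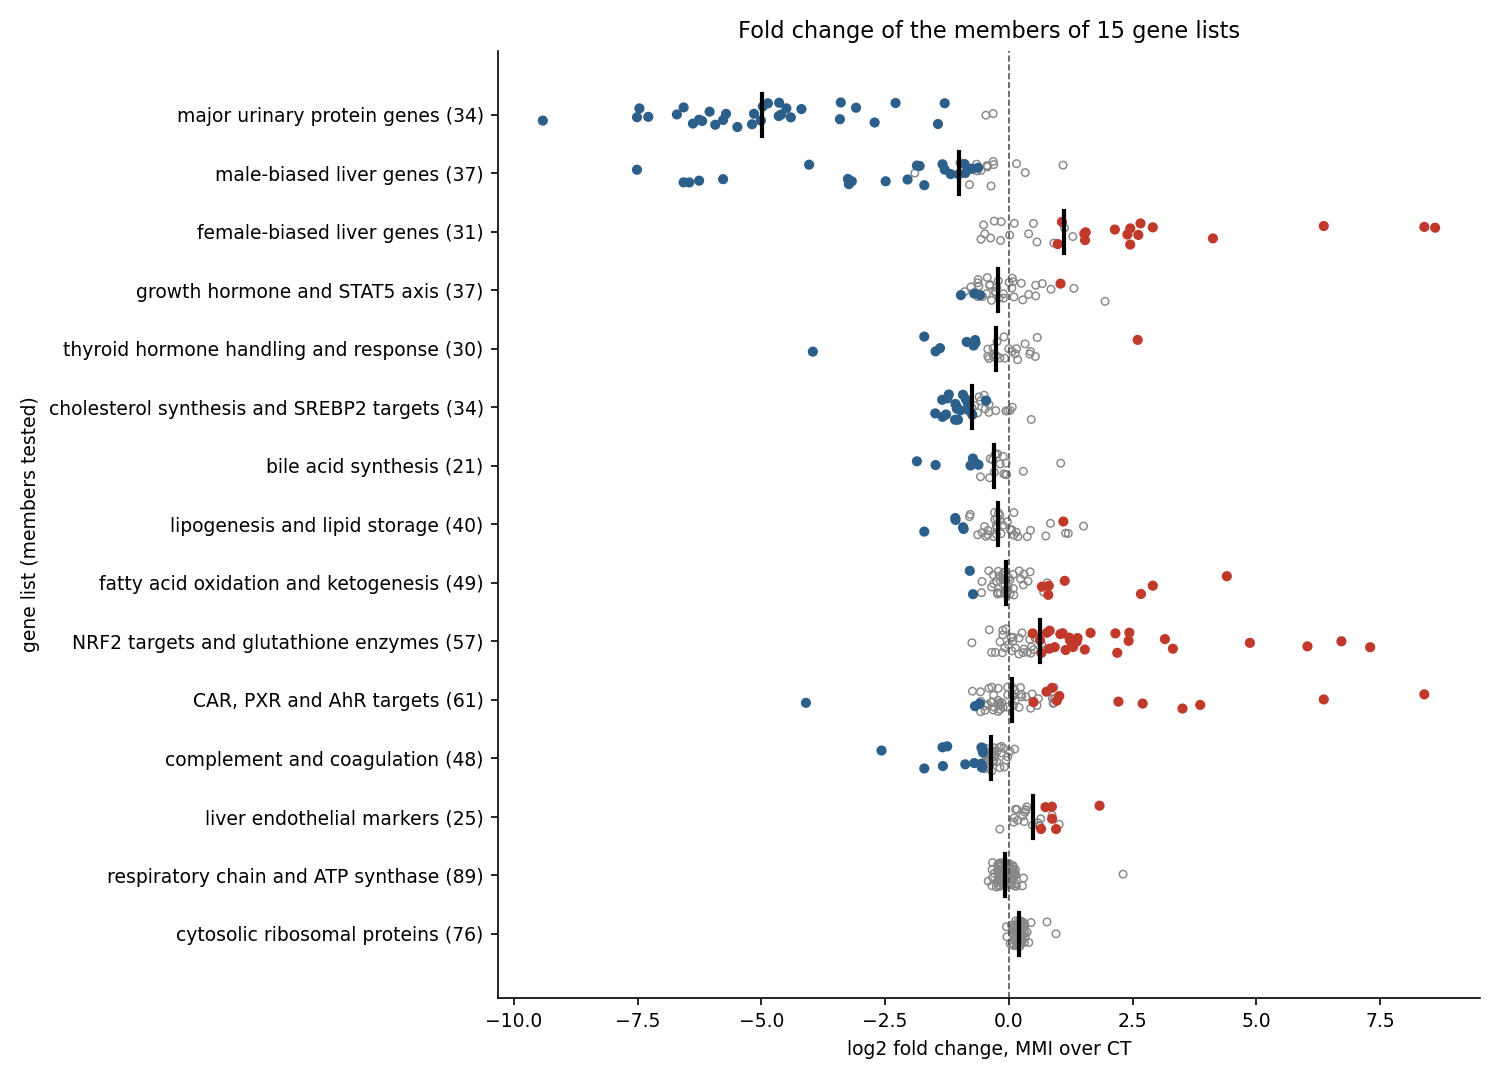
Log2 fold change of MMI over CT for the tested members of 15 gene lists, with 1 point for each gene, filled red where higher and blue where lower past the test and open grey otherwise. The black bar is the list median and the dashed line the median of all genes, 0.01. The Mup genes lie lowest, with a median of -4.99, and the female-biased genes highest, with a median of 1.12.

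Targets of the xenobiotic receptors CAR, PXR and AhR were affected unevenly. Of 61 tested genes, 11 (18%) were higher and 3 (4.92%) were lower, beside 2.48% and 2.80% of all genes tested. The median was 0.07, and 2 of the 11, Cyp2a4 and Cyp2b9, were also on the female-biased list. Cyp1a1, the classical AhR target, was 21.5, 57.1 and 17.3 CPM in MMI livers, against 2.82, 1.79 and 1.92 CPM in CT livers (log2 fold change 3.87, SE 0.45, edgeR adjusted p = 0.00059). Cyp2a5, the mouse coumarin hydroxylase, was 3012, 4059 and 3830 CPM in MMI livers, against 624, 504 and 546 CPM in CT livers (log2 fold change 2.70, SE 0.16, edgeR adjusted p = 5.43e-06). Both were apart from CT livers in every library. Ephx1, the microsomal epoxide hydrolase, rose (log2 fold change 1.02, edgeR adjusted p = 0.00229). Cyp2a22 rose with a log2 fold change of 3.51, subject to the same uncertainty as the other Cyp2a copies.

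The usual marker genes of CAR and PXR did not pass the test with all libraries. Cyp2b10, the CAR target, was 28.9, 24.6 and 7.2 CPM in MMI livers and 11.4, 12.6 and 8.54 CPM in CT livers, and MMI replicate 3 was below all CT libraries (log2 fold change 0.91, edgeR adjusted p = 0.231). Without MMI replicate 3 its edgeR adjusted p was 0.00214, and without any other single library it was 0.341 to 0.504. Cyp3a11, the PXR target, was 4508, 4750 and 3552 CPM in MMI livers and 5413, 5160 and 5150 CPM in CT livers (log2 fold change -0.30, edgeR adjusted p = 0.305). Nr1i3, which encodes CAR, was 467, 509 and 813 CPM in MMI livers and 433, 339 and 412 CPM in CT livers (log2 fold change 0.60, edgeR adjusted p = 0.132), and Nr1i2, which encodes PXR, was at the CT level (log2 fold change -0.02, edgeR adjusted p = 0.95). Sult5a1, a sulfotransferase, was 1.58, 0.686 and 0.635 CPM in MMI livers, against 9.63, 18.4 and 22.4 CPM in CT livers (log2 fold change -4.10, edgeR adjusted p = 0.000176). The number of higher genes in this list was 20 without MMI replicate 3 and 8 or 9 without any other single library, and 1 gene was lower without MMI replicate 2, CT replicate 2 or CT replicate 3.

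Of 48 tested complement and coagulation genes, 12 (25.0%) were lower in MMI livers and none was higher, beside 2.80% lower among all genes tested. A negative log2 fold change was found for 46, and the median was -0.36, the same as that of the 14 hepatocyte markers, of which 2 were lower. C8b, a chain of the membrane attack complex, was 241, 168 and 149 CPM in MMI livers, against 429, 486 and 496 CPM in CT livers (log2 fold change -1.34, SE 0.18, edgeR adjusted p = 0.00136). C9, which forms its pore, and C6, another component, fell by 1.33 and 1.71 on the log2 scale (edgeR adjusted p = 0.00141 and 0.00414). F11, coagulation factor XI, was 58.9, 52.8 and 69.6 CPM in MMI livers, against 123, 159 and 148 CPM in CT livers (log2 fold change -1.24, SE 0.15, edgeR adjusted p = 0.000678). The groups did not overlap for C8b and F11. C4a, the sex-limited protein gene of mice, was 9.3, 6.64 and 12 CPM in MMI livers, against 32.7, 47.9 and 84.8 CPM in CT livers (log2 fold change -2.57, edgeR adjusted p = 0.0011), although its near-identical neighbour C4b makes its count uncertain. Of the 12 genes, C6, C8a and C8b were also on the male-biased list. The count was 7 without MMI replicate 2, CT replicate 1 or CT replicate 2, and 6 without CT replicate 3.

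Of 56 tested genes of the urea cycle and amino acid catabolism, 5 (8.93%) were lower and none was higher. Among all genes tested, 2.80% were lower. A negative log2 fold change was found for 50 of the 56, and the median was -0.27. Bhmt, which remethylates homocysteine, was 2596, 1572 and 2138 CPM in MMI livers, against 4946, 4882 and 4205 CPM in CT livers (log2 fold change -1.15, SE 0.18, edgeR adjusted p = 0.00434). Prodh, proline dehydrogenase, was 166, 170 and 160 CPM in MMI livers, against 285, 294 and 268 CPM in CT livers (log2 fold change -0.77, SE 0.11, edgeR adjusted p = 0.00275). Prodh varied little within either group, and Bhmt had its lowest level in MMI replicate 2. Without any single CT library, 2 genes of this list were lower.

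Lobular zone genes did not move as a block. Cdh1, the adhesion protein of periportal hepatocytes and bile ducts, was 20.5, 15.2 and 17.9 CPM in MMI livers, against 78.8, 77.1 and 65 CPM in CT livers (log2 fold change -2.04, SE 0.15, edgeR adjusted p = 1.54e-05; chromosome 8, 106603351 to 106670246). The groups were tight and far apart. Hsd17b6, another gene of the periportal list, rose (log2 fold change 1.14, edgeR adjusted p = 0.00781). In all, 4 periportal genes of 30 (13.3%) were lower and 1 (3.33%) was higher, beside 2.80% and 2.48% of all genes tested. Of 29 pericentral genes, 4 (13.8%) were lower and 3 (10.3%) were higher, or 2 to 3 higher when each library was left out. Cyp2a5, among these higher genes, was also on the list of CAR, PXR and AhR targets. Glul, the glutamine synthetase of the hepatocytes around the central vein, was 573, 345 and 699 CPM in MMI livers, against 941, 1129 and 972 CPM in CT livers (log2 fold change -0.91, edgeR adjusted p = 0.0374), and the adjusted p was 0.154 without CT replicate 2, 0.0928 without CT replicate 3, 0.0756 without CT replicate 1 and 0.0707 without MMI replicate 1. Slc1a4, a neutral amino acid transporter, was 14.8, 43.8 and 49.1 CPM in MMI livers, against 9.63, 7.16 and 8.44 CPM in CT livers (log2 fold change 2.09, edgeR adjusted p = 0.00706). The members of each list thus went both ways. Without CT replicate 2 or CT replicate 3, 2 periportal genes and 1 pericentral gene were lower.

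Marker genes of other liver cells were measured beside these results. Among all genes tested, 2.48% were higher and 2.80% were lower in MMI livers. Fewer cells of a type and less RNA per cell cannot be told apart in bulk tissue. The 14 hepatocyte markers summed to 50690, 49001 and 44179 CPM in MMI livers, against 59452, 61749 and 59566 CPM in CT livers, with 2 members lower and a median of -0.36, and none passed without MMI replicate 2 or any single CT library, while 4 passed without MMI replicate 3. The 25 endothelial markers summed to 636, 748 and 755 CPM in MMI livers, against 591, 453 and 487 CPM in CT livers, with 6 members (24%) higher and a median of 0.48. Every MMI liver was thus below the CT livers in hepatocyte markers and above them in endothelial markers. Lyve1, a hyaluronan receptor of sinusoidal endothelium, was 11.4, 15.6 and 14.6 CPM in MMI livers, against 6.02, 2.66 and 2.91 CPM in CT livers (log2 fold change 1.83, SE 0.29, edgeR adjusted p = 0.00434). Only 1 endothelial marker passed without CT replicate 2 or without CT replicate 3.

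Markers of Kupffer cells and macrophages summed to 172, 219 and 217 CPM in MMI livers and 271, 220 and 232 CPM in CT livers, with 1 of 20 lower. That gene, Mpeg1, encodes the pore-forming perforin-2 of phagocytes and was 33.6, 34.2 and 33.1 CPM in MMI livers, against 54.5, 52.4 and 49.6 CPM in CT livers (log2 fold change -0.63, edgeR adjusted p = 0.00745). Stellate cell and matrix genes summed to 798, 947 and 867 CPM in MMI livers and 913, 588 and 610 CPM in CT livers, and CT replicate 1 lay within the MMI range. Of these 34 genes, 2 (5.88%) were higher, beside 2.48% among all genes tested. Without CT replicate 1, 7 were higher, and none was without MMI replicate 2, MMI replicate 3, CT replicate 2 or CT replicate 3. Cholangiocyte markers summed to 303, 271 and 281 CPM in MMI livers and 285, 213 and 227 CPM in CT livers, with 1 of 11 higher, or 2 without MMI replicate 3 or CT replicate 1. The gene, Krt23, encodes a keratin and was 5.55, 5.96 and 6.72 CPM in MMI livers, against 1.81, 1.41 and 1.53 CPM in CT livers (log2 fold change 1.93, edgeR adjusted p = 0.000998). Lymphocyte markers summed to 49.8, 35.1 and 83 CPM in MMI livers and 40.4, 37.9 and 32.4 CPM in CT livers, with 1 of 15 higher and 1 lower. Erythroid markers summed to 247, 227 and 271 CPM in MMI livers and 334, 368 and 371 CPM in CT livers, with 2 of 9 lower, 5 without MMI replicate 3 and none without CT replicate 2 or CT replicate 3. Of 24 markers of fat, muscle, pancreas and kidney, 2 were present in both tables. The part of these cell types in the other results was not tested.

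**Figure D3:**
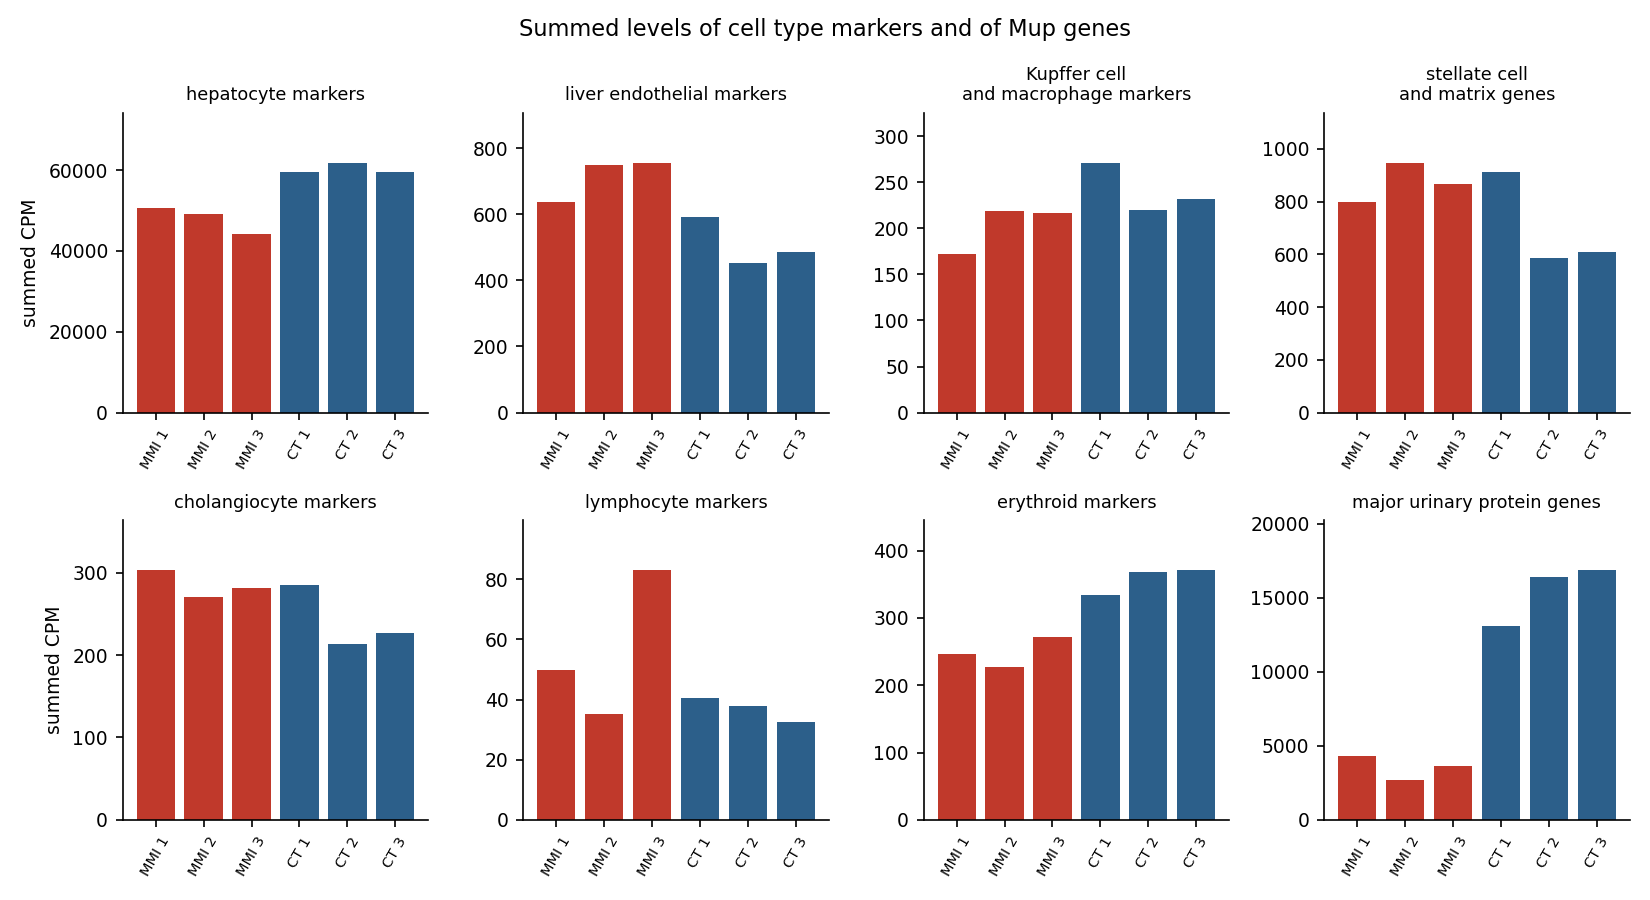
Summed CPM of the marker genes of hepatocytes, endothelial cells, Kupffer cells and macrophages, stellate cells, cholangiocytes, lymphocytes and erythroid cells, and of the Mup genes, as a bar for each library, MMI in red left of CT in blue. Hepatocyte markers were 44179 to 50690 CPM in MMI livers and 59452 to 61749 CPM in CT livers, and Mup genes 2674 to 4315 CPM in MMI livers and 13081 to 16872 CPM in CT livers.

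The MMI livers differed among themselves in a way that changed from list to list. The level of each gene past the test was set against the CT mean on the log2 scale, and the MMI library farthest from the CT mean in the direction of the change was noted, as a description without a test. Among all 346 higher genes this was replicate 1 for 22, replicate 2 for 157 and replicate 3 for 167, and among all 390 lower genes it was replicate 1 for 45, replicate 2 for 177 and replicate 3 for 168. Replicate 1 was therefore seldom the most changed liver, and replicates 2 and 3 had about equal shares over all genes.

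The library farthest from the CT mean differed between the sex-biased and the cholesterol genes. Replicate 2 was farthest for 19 of 22 male-biased genes, 26 of 32 Mup genes, 12 of 16 female-biased genes and 9 of the 11 higher CAR, PXR and AhR targets. These lists are not separate: the first 2 share 4 genes past the test and the last 2 share 2. Each count describes 1 library, and the genes of a list are not replicates of it. Replicate 3 was farthest for 15 of 18 cholesterol genes. The median level of the lower male-biased genes was -1.52, -2.73 and -1.99 relative to the CT mean in MMI replicates 1, 2 and 3, and -0.24, 0.08 and 0.10 in CT replicates 1, 2 and 3. For the lower cholesterol genes the medians were -0.91, -0.87 and -1.44 in MMI livers and 0.30, -0.15 and -0.23 in CT livers. For the higher NRF2 targets they were 1.15, 1.53 and 1.5 in MMI livers and 0.06, -0.01 and -0.01 in CT livers, and replicate 2 was farthest for 18 of 28 of them and replicate 3 for 10. MMI replicate 3 also had the lowest total count and the highest mitochondrial share, whose part in these differences was not tested.

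**Figure D4:**
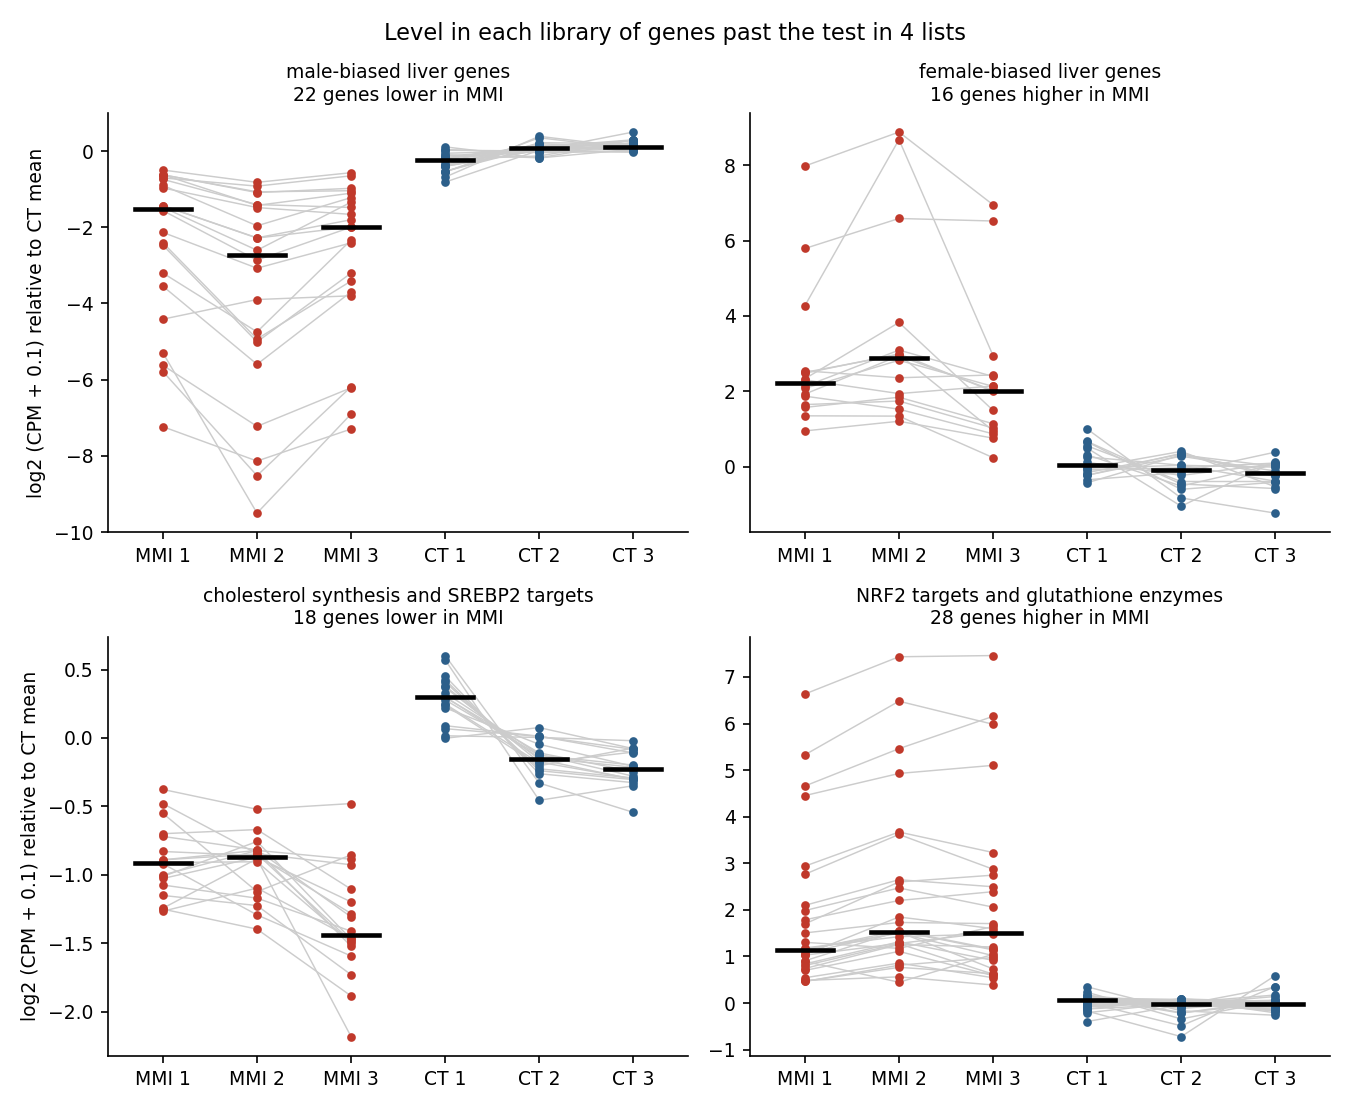
Log2 of CPM plus 0.1 relative to the mean of the CT libraries, for the members past the test of the male-biased, female-biased, cholesterol and NRF2 lists, in MMI replicates 1 to 3 and then CT replicates 1 to 3. Grey lines join the values of 1 gene and black bars are medians. The lowest median of the male-biased genes was in MMI replicate 2 (-2.73) and that of the cholesterol genes in MMI replicate 3 (-1.44).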

How the data were processed

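Liver RNA of 3 MMI and 3 CT libraries was compared, with groups and replicate numbers taken from the sample labels. Per the tables the authors deposited, the values were raw whole-number counts for each gene, with the CT libraries in a table of their own. The study's methods name stranded poly(A) libraries, trimming, STAR and HTSeq, whereas HISAT2 2.1.0 and HTSeq 0.6.1p1, with the build GRCm38, stand in the submitters' processing notes. Which aligner made the counts, whether strand was used and how reads matching several genes were counted is not given in the sources used here. Genes with near-identical copies (Mup, Cyp2a, Cyp2b, Cyp4a, Gsta, Gstm, Serpina1, Acot, C4) are therefore uncertain.

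Genes in both tables were joined by gene ID (17154), and 21 symbols that had become dates were restored. A filter on low counts had been applied before deposit, since the 604 genes only in the MMI table had at most 9 summed MMI counts. Coordinates came from GENCODE M21 (GRCm38), which held 17151 of the shared IDs. The 6 libraries were scaled by TMM, filtered by filterByExpr (minimum count 10) and tested with the quasi-likelihood method of edgeR 4.0.16 under R 4.3.3, with p-values adjusted over all genes tested by Benjamini-Hochberg and a threshold of 0.05. Levels relative to the CT mean used log2 of CPM plus 0.1. Total counts ranged from 17256776 to 22599227, and no 2 replicates agreed within sampling noise. Promoter windows came from RefSeq (GRCm38.p6). The procedure was tested on simulated counts drawn independently for each library, with the spread fitted here and no difference between tables. Such counts cannot show an effect of the table or of libraries from the same mouse. The procedure recovered 25.4% of genes changed 1.5-fold, 76.9% of those changed 2-fold and 100.0% of those changed 4-fold. Of its 141 calls, 10 were false.

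The comparison, its members and the gene lists were chosen with earlier results of these data known, so lists are described by counts and medians and were not tested as sets. Named genes were the members past the threshold with the smallest adjusted p. The first 5 were taken in the thyroid hormone, growth hormone, male-biased, female-biased, Mup, cholesterol and lipogenesis lists. The same held for the lists of bile acid synthesis, bile acid transport, NRF2 targets and CAR, PXR and AhR targets, and the first 3 were taken in the others. To these came 23 genes fixed whatever their result. The 12 largest changes in each direction were also taken, among genes whose groups were apart and whose higher group averaged 5 CPM or more. This rule gave 131 genes, of which a selection is described, and certain genes are left unreported. Outside it, and after their values were seen, 33 further genes were taken for the text: Srxn1, Txnrd1, Ugdh, Hmgcs1, Nfe2l2, Keap1, Gclc, Gclm, Hmox1, Cyp2b10, Cyp3a11, Fasn, Scd1, Gpd2, Pdp2, Upp2, Glul, Abcc3, Stat5a, Cyp4a12a, Selenbp2, Abcb11, Slc10a1, Nr1h4, Ppara, Cpt1a, Hamp, C6, C9, Cd36, Acot3, Ephx1 and Gstm1, together with Gsta3, Mgst1, Slc1a1, Slc22a12 and Mup-ps7. Alternatives were DESeq2 1.42.0 size factors and its Wald test, upper quartile scaling, limma-voom 3.58.1, a test against a 1.5-fold change, other filters, all 9 libraries in the fit, a replicate block, fits without mitochondrially encoded or Mup genes, and leaving out each library. Same-numbered MMI and CT libraries share only a number.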

Additional observations from a re-analysis of the deposited data

How the results depend on the processing

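The total of 736 genes past the threshold became 1154 by the DESeq2 Wald test (524 higher, 630 lower) and 223 in the test against a 1.5-fold change (118 higher, 105 lower). Leaving out each library gave 341 to 783 genes in all, 155 to 347 higher and 186 to 441 lower, lowest without CT replicate 2. Other scalings, filters and the fit of all 9 libraries stayed within 1.5 times, with 307 to 408 higher and 347 to 459 lower genes, and no scaling moved the median log2 fold change by more than 0.031. Of 116 genes named by the rule and past the threshold, 83 were past it in all 6 fits that left out a library. Among the named genes, directions turned for 6 that lay near 0. With 1 library left out at a time, log2 fold changes ranged from -0.18 to 0.08 for Cyp8b1, -0.10 to 0.05 for Nr1i2, -0.00 to 0.19 for Thra, -0.18 to 0.04 for Ppara, -0.00 to 0.14 for Keap1 and -0.06 to 0.03 for Nfe2l2. Upper quartile scaling gave 0.01 for Nr1i2 and 0.02 for Nfe2l2, and requiring 50 counts in 3 libraries gave 0.01 for Nfe2l2. Fitting the replicate number as a block gave 475 higher and 509 lower genes, but same-numbered MMI and CT libraries deviated together with correlations of -0.074, -0.057 and 0.242, against -0.214 to 0.237 for other pairs, so the samples were not taken as paired. Why the counts moved was not tested. With 3 libraries a group, a gene that did not pass may still have changed.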

Other observations

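Genes of protein synthesis and respiration showed no single gene past the threshold. Among all 13925 genes tested, 2673 had an unadjusted p under 0.05, and DESeq2 called 524 higher and 630 lower. None of 76 cytosolic ribosomal protein genes passed by edgeR's quasi-likelihood test, 10 had an unadjusted p under 0.05, limma-voom called none and DESeq2 called 2 higher, while 74 had a positive log2 fold change and the list median was 0.20. They took 1.815%, 1.698% and 2.069% of the counts in MMI livers, against 1.446%, 1.512% and 1.538% in CT livers. Of 89 genes of the respiratory chain and ATP synthase none passed by edgeR, DESeq2 or limma-voom (5 with an unadjusted p under 0.05, median -0.07), although 1 was higher without CT replicate 1, and likewise none of 77 mitochondrial ribosomal protein genes (3, median -0.07) and none of 13 mitochondrially encoded genes (1, median -0.09).

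Mt1 and Mt2, the metallothioneins that bind zinc and copper, were 72.5, 53.3 and 121 CPM and 24, 33.6 and 43.5 CPM in MMI livers, against 16.2, 6.07 and 8.14 CPM and 5.51, 2.33 and 4.88 CPM in CT livers (log2 fold changes 3.01 and 2.98, edgeR adjusted p = 0.00091 and 0.000213). Slc39a5, a zinc importer, was 4.79, 5.96 and 5.72 CPM in MMI livers, against 0.602, 0.217 and 0.543 CPM in CT livers (log2 fold change 3.56, edgeR adjusted p = 0.000226). Id1, a target of bone morphogenetic protein signalling that follows liver iron, was 15.7, 14 and 30.6 CPM in MMI livers, against 7.31, 4.77 and 4.64 CPM in CT livers (log2 fold change 1.84, edgeR adjusted p = 0.00558). The groups did not overlap for these 4 genes. Hamp, hepcidin itself, was 498, 279 and 553 CPM in MMI livers and 277, 267 and 303 CPM in CT livers, and MMI replicate 2 lay within the CT range (log2 fold change 0.65, edgeR adjusted p = 0.122). Without MMI replicate 2 the edgeR adjusted p was 0.00378, and without any other single library it was 0.224 to 0.355. By the DESeq2 Wald test it was 0.0335. Of 30 tested genes of iron and heme, 5 (16.7%) were higher and 2 (6.67%) were lower, beside 2.48% and 2.80% of all genes tested. The median was 0.43, and the number of higher genes was 9 without MMI replicate 2 and 2 without CT replicate 2 or CT replicate 3.

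Among the largest changes outside the lists, Nrxn2, a neurexin of the nervous system, was 19.1, 20 and 23.6 CPM in MMI livers, against 1.62, 0.651 and 1.63 CPM in CT livers (log2 fold change 3.98, edgeR adjusted p = 1.19e-05). Abcc12, a transporter of the multidrug resistance family, was 2.94, 6.77 and 15.1 CPM in MMI livers, against 0.139, 0.163 and 0.0493 CPM in CT livers (edgeR adjusted p = 0.000756). Slc1a1 and Slc22a12, a glutamate and a urate transporter best known from the kidney, had 37, 82 and 73 counts and 47, 84 and 78 counts in MMI livers, and 0 in each CT liver, which allows up to 3 counts over the group. Both passed (edgeR adjusted p = 0.000838 and 0.000461) and were chosen after their values were seen. The pseudogene Mup-ps7 had 0 counts in each MMI liver and 53, 110 and 79 counts in CT livers (edgeR adjusted p = 0.00046).

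Of the 323 genes listed in the CT table alone, none had more than 42 summed CT counts, so no abundant gene was lost by comparing shared genes.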
